A study of Danio rerio with 6 samples.

Results

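The enzymes that shorten poly(A) tails, together with the adaptor Btg4, were followed in RNA-seq of juvenile zebrafish gonads. The members are 10 of the 32520 genes in the count tables, chosen by name but with earlier results of these data known. They are *cnot1*, *cnot2*, *cnot3a*, *cnot6a*, *cnot7* and *cnot8* of the CCR4-NOT complex, *btg4*, *pan2*, *pan3* and *parn*. Each symbol matched 1 Ensembl gene, and all 10 passed the filter on low counts, *btg4* only through the wild-type samples. The samples were 3 gonad pools from wild-type fish, tg(ziwi:GFP) and *eif4e1b* +/+, and 3 from *eif4e1b* mutant siblings, tg(ziwi:GFP) and *eif4e1b* -/-, with 3 gonads in each pool. All fish carried the reporter, in which the *ziwi* (*piwil1*) promoter drives GFP in germ cells, and juveniles were chosen for high GFP in the gonad as a sign that they had started female development. The labels call all 6 pools female and ovary, whereas by the study's microscopy some mutant gonads with high GFP held sperm under differentiation, which its authors took as most likely ovaries turning into testes. Mutant lines with different frameshift deletions in the third exon of *eif4e1b*, a germline paralog of the cap-binding protein eIF4E, were made with CRISPR/Cas9, and which of them gave these pools is not given in the sources used here.

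Most mRNAs end in a poly(A) tail, and shortening of that tail (deadenylation) usually lowers translation and starts decay. In the CCR4-NOT complex, Cnot1 is the scaffold, Cnot2 and Cnot3 bind it as a regulatory module, and the nucleases come from the Ccr4-like pair Cnot6 and Cnot6l and the Caf1-like pair Cnot7 and Cnot8. The Pan2-Pan3 complex trims long tails, with Pan2 as the nuclease and Pan3 as the subunit that brings it to the mRNA, and Parn is a separate nuclease known from *Xenopus* oocytes for tail shortening during maturation. In the mouse, BTG4 links CNOT7 and CNOT8 to maternal mRNAs, which are cleared as the oocyte matures into an embryo.

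Library depth differed between the genotypes, with 11771342 to 13362230 counts in the wild-type samples and 5539470 to 8233080 in the mutant samples. The members together held 33749 to 41769 counts in wild types and 3596 to 6993 in mutants. *eif4e1b* itself had 1391, 1116 and 1386 counts in the wild types and 55, 9 and 24 in the mutants, in the order of replicates 1 to 3, and fell by 4.92 on the log2 scale (SE 0.55, edgeR quasi-likelihood test, Benjamini-Hochberg adjusted p = 0.000601). The labelled tissue was checked with 20 oocyte genes (such as *gdf9*, *figla*, *zar1* and genes of the egg coat), all of which fell, from a summed level of 14258 to 18272 CPM (each gene's counts scaled to 1000000 counts per library, with TMM factors) in wild types to between 67.3 and 525 CPM in mutants. Mutant replicate 1 kept more of them than the other mutants, at 3.20% of the wild-type mean against 0.410% and 0.560%, and in mutant replicate 3 *zp3a.1*, *zp2.1*, *zp2.2* and *zp2.5* had no count. The germ cell list (13 genes of either sex, such as *ddx4* and *dazl*) summed to 3452 to 4599 CPM in wild types and 2000 to 4632 CPM in mutants, so the groups overlapped. All 27 exocrine pancreas genes were higher in mutants, with a sum of 126 to 520 CPM in wild types and 54171 to 90643 CPM in mutants. Liver genes summed to 320, 139 and 4170 CPM in wild types and to 877, 186356 and 24091 CPM in mutants, so the groups overlapped, and 3 of 13 were called higher. Of genes of testis somatic cells, 8 of 10 tested were higher and 1 lower, and of meiotic prophase genes 8 of 16 were higher and 1 lower. Of spermatid genes 6 of 14 were higher and 3 lower. Their summed levels overlapped between the groups, at 148, 76.6 and 88.0 CPM in wild types and 135, 66.9 and 197 CPM in mutants. Of ovarian somatic genes 3 of 4 were higher, but only 4 of the 11 symbols of that list were matched. The remaining gene, *hsd17b1*, had 1, 146 and 117 counts in wild types and 8, 10 and 2 in mutants, and was not called. Of muscle genes 13 of 14 and of skin genes 9 of 11 were higher. Beside these counts, 37.5% of all tested genes were higher and 32% lower. Some listed genes with higher values in mutants passed the filter on low counts only through the mutant samples. Examples are *tekt2* (spermatid), with 3, 2 and 0 counts in wild types, and *cela1.2* (pancreas), with 3, 3 and 1. Some oocyte genes, such as *zp2.5* with 65, 1 and 0 counts in mutants, passed it only through the wild types. The list counts therefore depend in part on the filter. Wild-type replicate 1 stood above the other wild types in the sums of testis somatic genes (1158 CPM against 495 and 538) and of meiotic genes (674 CPM against 297 and 321), the latter also above the 498 CPM of mutant replicate 2. The part of these differences in the members' values was not tested, and in bulk samples fewer cells of a type and less RNA per cell cannot be told apart.

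Of the 10 members, 8 fell in *eif4e1b* mutant gonads, none rose, and *cnot1* and *cnot3a* did not pass the test (edgeR quasi-likelihood test, two-sided, 3 samples against 3, adjusted p under 0.05 by Benjamini-Hochberg). At an unadjusted p under 0.05 the count of higher members was also 0, as it was with DESeq2 and limma-voom. Among all 20091 genes tested, 32% were called lower and 37.5% higher. The median log2 fold change of the members, mutant minus wild-type, was -1.83, beside 0.23 over all tested genes. In 9 of the 10, every mutant sample was below every wild-type sample, a pattern shown by 35.4% of all tested genes. The falls were graded: *btg4*, *parn* and *cnot6a* lay at the 0.174, 1.97 and 2.76 percentiles of the log2 fold changes of all tested genes, *cnot8* at the 5.64, and *cnot3a* and *cnot1* at the 38.3 and 50. Under library totals in place of TMM factors the calls of *cnot2* and *pan2* were lost and 6 members were lower, beside 18.6% of all tested genes. The count was 7 relative to the germ cell list, beside 19.1%, and 9 with TMM factors computed without genes of other tissues, beside 36.5%. With upper-quartile factors *cnot1* was called higher, as were 49% of all tested genes.

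**Figure D1:**
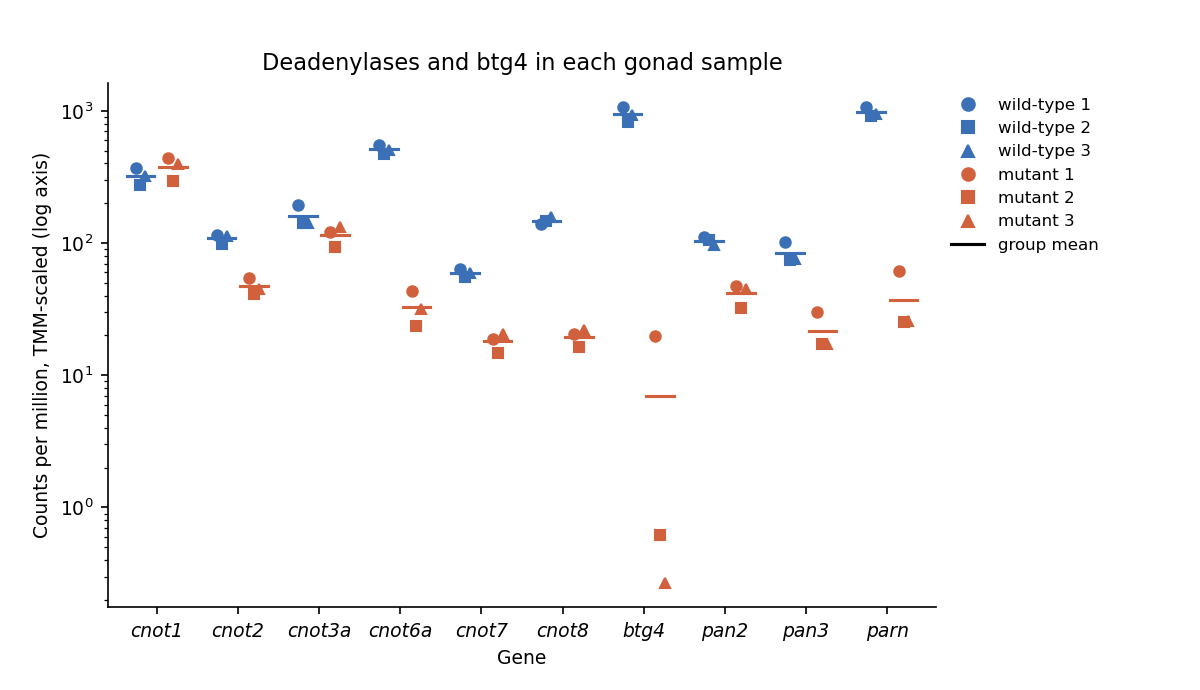
Level of each member in TMM-scaled CPM (log axis) in the 3 wild-type (blue) and 3 *eif4e1b* mutant (orange) samples, with lines at the group means. The groups overlap for *cnot1* only, and the widest spread is that of *btg4* in the mutants, from 0.267 to 20.0 CPM.

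The scaffold gene *cnot1* (ENSDARG00000004174) was not called in either direction. It was at 367, 274 and 322 CPM in wild types and at 439, 293 and 398 CPM in mutants. The ranges overlapped, and the log2 fold change was 0.23 (95% interval -0.39 to 0.85, adjusted p = 0.449 by edgeR with Benjamini-Hochberg), so that a change of either sign within that interval could not be told from the spread. Its sign depended on the scaling: with TMM factors computed without genes of other tissues the value was -0.05, and with upper-quartile factors it was 0.92 and called higher (edgeR, Benjamini-Hochberg adjusted p = 0.0215), where the median of all tested genes was also 0.92.

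*cnot2* (ENSDARG00000061802), whose product sits on the C-terminal part of the scaffold with Cnot3, was measured at 116, 98.5 and 114 CPM in wild types and at 54.9, 41.4 and 44.8 CPM in mutants. All mutant samples were well below the wild types, at 37.9% to 50.2% of the wild-type mean, and the gene fell by 1.22 on the log2 scale (SE 0.19, edgeR with Benjamini-Hochberg, adjusted p = 0.00179). Relative to library totals the difference was -0.75 and relative to the germ cell list -0.99, neither of which passed (edgeR, Benjamini-Hochberg adjusted p = 0.119 and 0.0661). *cnot3a* (ENSDARG00000007135), one of a pair of Cnot3 paralogs, was at 193, 142 and 143 CPM in wild types and 120, 93.1 and 131 CPM in mutants. The groups did not overlap, but mutant replicate 3 came close to wild-type replicates 2 and 3, and the log2 fold change of -0.47 had a 95% interval from -1.01 to 0.07 (edgeR, Benjamini-Hochberg adjusted p = 0.102). Its value was 0.0074 with library totals and 0.22 with upper-quartile factors, and it was called lower at -0.76 with TMM factors computed without genes of other tissues (edgeR, Benjamini-Hochberg adjusted p = 0.034).

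Among the CCR4-NOT members, the catalytic subunits had larger fitted falls than *cnot1*, *cnot2* and *cnot3a*, which was not tested as a difference. This order did not extend to the subunits outside the members. Of the Ccr4-type nucleases there, *cnot6l* rose by 1.67 and *cnot6b* fell by 1.53 on the log2 scale. *cnot10*, which is not among the nucleases, fell by 2.09, more than *cnot7*. *cnot6a* (ENSDARG00000008255), a nuclease of the Ccr4 type, was at 555, 474 and 507 CPM in wild types and at 43.7, 23.4 and 31.9 CPM in mutants. The mutant samples kept 4.58% to 8.54% of the wild-type mean, and the wild types differed among themselves by no more than 1.17-fold. The gene fell by 3.95 on the log2 scale (SE 0.31, edgeR with Benjamini-Hochberg, adjusted p = 0.000308), or 15.5-fold.

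*cnot7* (ENSDARG00000032116) and *cnot8* (ENSDARG00000020043) encode the paralogous Caf1-type nucleases. *cnot7* was at 63.6, 54.9 and 59.1 CPM in wild types and 18.7, 14.7 and 20.7 CPM in mutants. *cnot8* was at 139, 147 and 158 CPM in wild types and 20.4, 16.4 and 22.0 CPM in mutants. Both were clearly separated between genotypes and alike among the mutant samples, whose highest value was 1.40 times the lowest for *cnot7* and 1.34 times for *cnot8*. *cnot7* fell by 1.71 on the log2 scale (SE 0.20, adjusted p = 0.000689) and *cnot8* fell by 2.91 (SE 0.20, adjusted p = 0.000286, both edgeR with Benjamini-Hochberg).

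*btg4* (ENSDARG00000035171), the adaptor, had the largest fall of the members. Its counts were 11810, 8900 and 10654 in wild types and 163, 4 and 2 in mutants, or 1073, 820 and 922 CPM against 20.0, 0.621 and 0.267 CPM. Exact Poisson 95% intervals, which cover counting error only, were 17.0 to 23.3 CPM in mutant replicate 1, 0.169 to 1.59 CPM in replicate 2 and 0.0323 to 0.964 CPM in replicate 3. The 2 counts of replicate 3 are below the floor of 3 counts, and mutant replicate 1 stood 45.0 times above the mean of the other mutants. The fold change was -7.06 on the log2 scale (SE 1.64, 95% interval -10.96 to -3.17, edgeR with Benjamini-Hochberg, adjusted p = 0.00820). *btg4* passed the filter on low counts only through the wild-type samples. Without mutant replicate 1 the fold change was -11.06, a size that rests on 4 and 2 mutant counts. The summed oocyte genes were 6.59 times higher in mutant replicate 1 than the mean of the other mutants.

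*pan2* (ENSDARG00000074675) was at 111, 105 and 96.5 CPM in wild types and at 47.6, 32.1 and 45.1 CPM in mutants. *pan3* (ENSDARG00000031637) was at 101, 74.6 and 76.1 CPM in wild types and at 30.2, 17.4 and 17.2 CPM in mutants. Neither gene overlapped between genotypes. The nuclease *pan2* fell by 1.33 (SE 0.21, adjusted p = 0.00190) and its partner *pan3* fell by 1.96 on the log2 scale (SE 0.29, adjusted p = 0.00156, both edgeR with Benjamini-Hochberg). With library totals the *pan2* difference was -0.84 and did not pass (edgeR, Benjamini-Hochberg adjusted p = 0.104), while *pan3* passed under every scaling tried.

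*parn* (ENSDARG00000102634) was at 1075, 919 and 943 CPM in wild types and at 61.1, 25.4 and 25.6 CPM in mutants. Mutant replicate 1 kept 6.24% of the wild-type mean, more than the 2.60% and 2.62% of the other mutants. The gene fell by 4.71 on the log2 scale (SE 0.47, edgeR with Benjamini-Hochberg, adjusted p = 0.000448), or 26.2-fold, and without mutant replicate 1 it fell by 5.29.

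**Figure D2:**
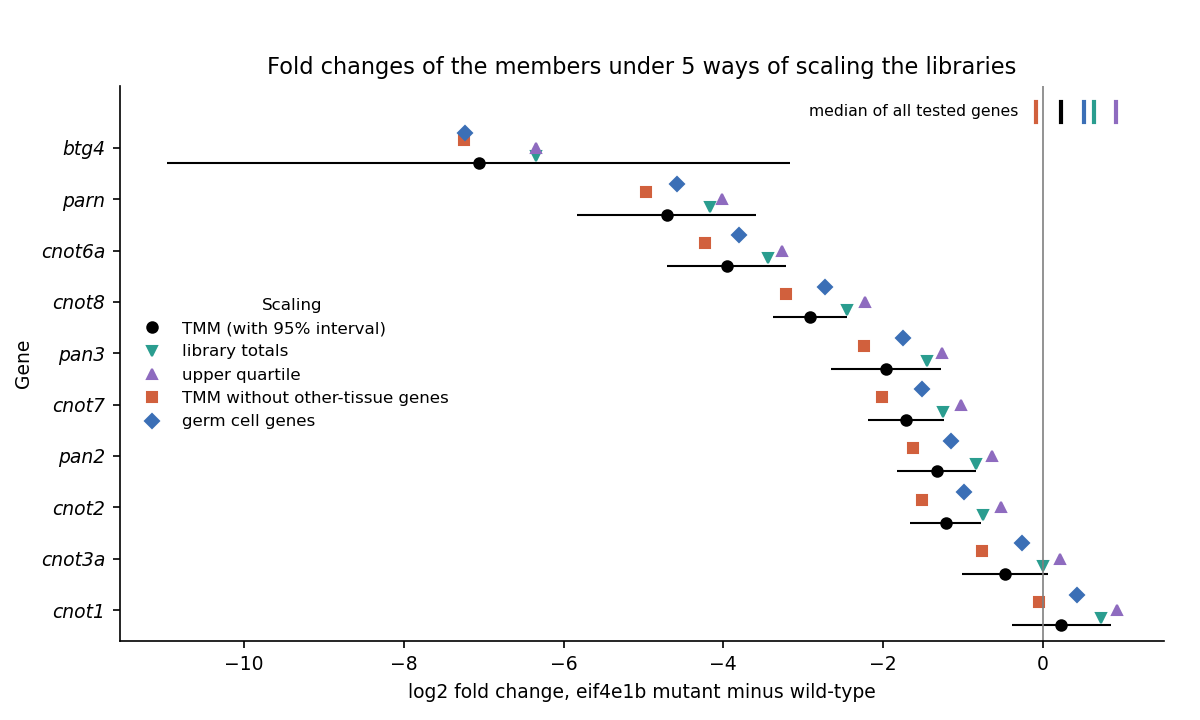
Log2 fold change of each member, mutant minus wild-type, under 5 ways of scaling the libraries, with the 95% interval of the TMM fit and, at the top, the median of all tested genes on each scale. All members but *cnot3a* and *cnot1* stay below 0 on all 5 scales, and those 2 lie on either side of 0 depending on the scale.

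The mutant samples did not rank alike for all members. Replicate 2 had the lowest value of 8 members and replicate 3 of *pan3* and *btg4*, whereas replicate 1 had the highest value of 7. Replicate 2 also had the lowest sum of the germ cell list, 51.0% of the wild-type mean against 118% and 114%, and the most liver counts. Set against the germ cell list, *cnot1* had 79.3 to 87.0 counts per 1000 list counts in wild types and 89.1 to 147 in mutants. On that measure *parn* went from between 234 and 266 to between 5.73 and 13.2, and *cnot6a* from between 121 and 137 to between 7.13 and 11.7. *cnot8* had 30.2 to 42.7 counts per 1000 germ cell list counts in wild types and 4.41 to 8.22 in mutants, and *cnot7* had 13.8 to 16.0 and 4.04 to 7.37. On this measure the groups overlapped only for *cnot3a*, at 38.6 to 41.9 in wild types and 26.0 to 46.5 in mutants. The share of all tested genes without overlap on this measure was not computed. *cnot1* was above the wild types in every mutant sample. In the edgeR fit scaled to this list, however, its 0.43 did not pass (Benjamini-Hochberg adjusted p = 0.463). That fit did not call *cnot2* either (edgeR, Benjamini-Hochberg adjusted p = 0.0661), and it called 7 members lower, beside 19.1% of all tested genes. The genes of the list did not move together, however: *piwil1*, whose promoter drives the reporter, was at 372 to 752 CPM in wild types and 618 to 1446 CPM in mutants, while *asz1* was at 110 to 150 CPM and 12.9 to 33.9 CPM and *ca15b* at 452 to 630 CPM and 0.133 to 17.1 CPM.

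Set against the 20 oocyte genes, *btg4* stood apart from the other members. It had 58.7, 57.5 and 55.0 counts per 1000 oocyte list counts in wild types and 38.0, 9.22 and 2.90 in mutants. Every mutant sample was lower than every wild type on this measure, while each of the other 9 members was higher in every mutant sample. The list itself was left at 3.20%, 0.410% and 0.560% of the wild-type mean, so a gene that fell less rises on this measure. The share of all tested genes that did so was not computed, and the 9 rises are not particular to these members. *parn* had 58.8, 64.5 and 56.3 counts per 1000 oocyte list counts in wild types and 116, 378 and 279 in mutants, and *cnot6a* had 30.4, 33.3 and 30.3 against 83.3, 348 and 347. Thus *parn* and *cnot6a* were lost less than the summed oocyte genes and *btg4* more. The genes of this list did not fall alike either. *zp3a.1* had 13365, 8545 and 11395 counts in wild types and 188, 3 and 0 in mutants. *org* had 5494, 4109 and 5117 in wild types and 305, 88 and 188 in mutants. The comparison of *btg4* is therefore with the sum and not with each oocyte gene. The mutant values rest on 4288, 434 and 689 oocyte list counts.

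**Figure D3:**
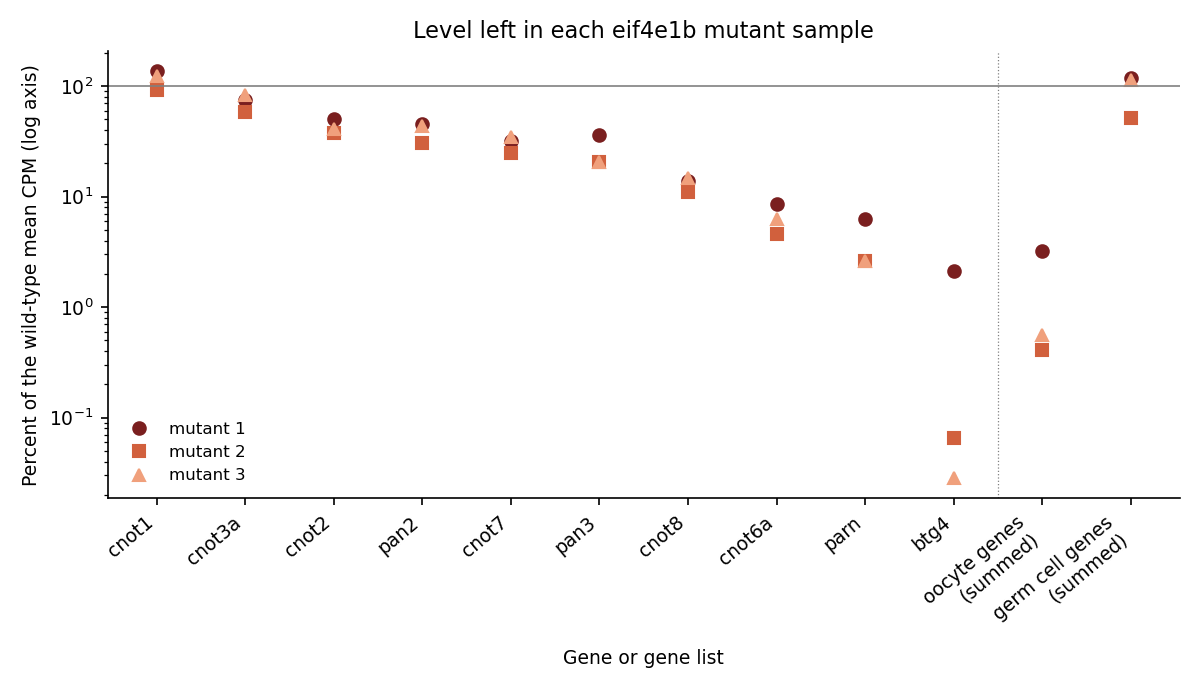
Level of each member in each of the 3 mutant samples as a percent of the wild-type mean CPM (log axis), beside the summed oocyte genes and the summed germ cell genes. *btg4* was left at 2.13%, 0.0661% and 0.0284%, below the summed oocyte genes in every mutant sample, and *cnot1* at 91.4% to 137%.

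Ratios between genes within a sample do not depend on how libraries are scaled, and 5 were compared, 4 between members and 1 between *cnot6a* and its paralog *cnot6b*, which is not a member. The *cnot8* to *cnot7* ratio, on the log2 scale, was 1.13, 1.42 and 1.42 in wild types and 0.13, 0.16 and 0.09 in mutants. The mutant samples were close to each other and below all wild types, with a difference of -1.20. As a share of the counts of both genes, *cnot8* took 68.6% to 72.8% in wild types and 51.6% to 52.7% in mutants. The 95% Wilson intervals reached no lower than 66.6% in wild types and no higher than 59.5% in mutants. They cover counting error within a sample only, not the spread between samples.

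The ratio of *cnot6a* to *cnot6b* was 4.79, 3.93 and 4.08 in wild types and 2.47, 1.80 and 1.22 in mutants on the log2 scale, a difference of -2.43. Among the counts of *cnot6a*, *cnot6b* and *cnot6l*, *cnot6a* took 92.8% to 95.1% in wild types and 68.5%, 37.6% and 54.2% in mutants. Reads may be split between such paralogs, since the treatment of reads with several matches is not given in the sources used here. The log2 *pan3* to *pan2* ratio was -0.13, -0.50 and -0.34 in wild types and -0.65, -0.88 and -1.39 in mutants. These groups came closest of the 5 ratios, and the difference was -0.65.

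For the nuclease *parn* and the scaffold *cnot1*, the log2 ratio was 1.55, 1.75 and 1.55 in wild types and -2.84, -3.52 and -3.96 in mutants, a difference of -5.06. *parn* had the largest fall of the members after *btg4*, and *cnot1* was not called. The size of this difference therefore follows from the choice of the pair. The *btg4* to *cnot7* ratio was 4.08, 3.90 and 3.96 in wild types and 0.09, -4.41 and -5.96 in mutants, a difference of -7.40. In all 5 ratios the mutant samples were below the wild types, and the exact two-sided permutation test gave p = 0.1 for each (also 0.1 after Benjamini-Hochberg adjustment over the 5), the smallest value that 3 samples against 3 allow. In each ratio the gene with the larger fitted fall was written first, so the shared direction of the ratios follows from how they were written. The share of all gene pairs whose ratios separate the groups was not computed. The make-up of the members' counts restates the same falls, since they raise the share of a gene that did not fall. *btg4* held 26.4% to 28.3% of the counts of the 10 members in wild types and 2.33%, 0.111% and 0.0362% in mutants, and *cnot1* went from 8.80% to 9.67% in wild types to between 51.3% and 54.0% in mutants.

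**Figure D4:**
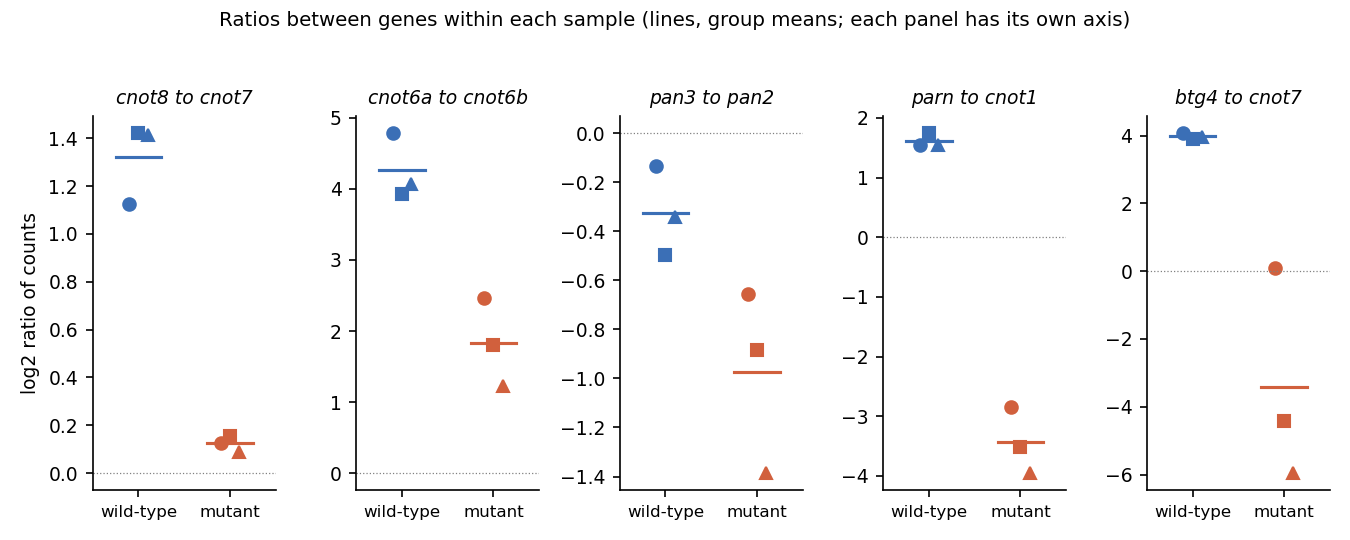
Log2 ratio of counts between genes within each sample, for 4 pairs of members and for *cnot6a* with its paralog *cnot6b*, in 3 wild-type (blue) and 3 *eif4e1b* mutant (orange) samples, with lines at the group means and an axis of its own for each pair. All mutant samples are below the wild types in each panel, by 1.20 on average for *cnot8* to *cnot7*. In each pair the gene with the larger fitted fall is written first.

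Beyond the members, other genes of poly(A) tail control were read from lists of the same pathway. Of 9 other genes of CCR4-NOT or bound to it, 5 fell, *cnot6l* rose and 3 did not pass (edgeR, adjusted p under 0.05 by Benjamini-Hochberg), with a median log2 fold change of -0.95, beside 32% lower and 37.5% higher among all tested genes. *cnot10*, whose product binds the N-terminal part of the scaffold, fell by 2.09 (SE 0.29, adjusted p = 0.00130), and *cnot6b* fell by 1.53 (SE 0.34, adjusted p = 0.00714). *cnot3b*, the paralog of *cnot3a*, fell by 1.11 (SE 0.18, adjusted p = 0.00226, all edgeR with Benjamini-Hochberg). *cnot6l*, the other Ccr4-type nuclease, had 91, 61 and 49 counts in wild types and 100, 208 and 100 in mutants from smaller libraries. It was higher in all mutant samples on the CPM scale, with a log2 fold change of 1.67 (SE 0.47, edgeR with Benjamini-Hochberg, adjusted p = 0.0175), a call that was lost without wild-type replicate 2 or without wild-type replicate 3. The calls in the lower direction dropped from 5 to 1 with library totals or upper-quartile factors and to 2 relative to the germ cell list, where 18.6%, 19.9% and 19.1% of all tested genes were lower, while *cnot10* passed under all 6 scalings.

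The BTG/TOB family, to which Btg4 belongs and whose members bind the Caf1-type nucleases, had 4 of 6 genes lower and 1 higher. The median was -2.68, and among all tested genes 32% were lower and 37.5% higher. *btg2* fell by 4.50 on the log2 scale (SE 0.48, adjusted p = 0.000518) and *tob2* fell by 4.47 (SE 0.43, adjusted p = 0.000414, both edgeR with Benjamini-Hochberg). *btg2* had 2050, 2033 and 2440 counts in wild types and 96, 22 and 79 in mutants, so unlike *btg4* it kept counts above the floor in every mutant sample. *btg1* went the other way, from 434, 638 and 293 counts to 902, 1382 and 1040 in smaller libraries, a rise of 1.91 (SE 0.39, edgeR with Benjamini-Hochberg, adjusted p = 0.00492). *btg1*, *btg2* and *tob2* kept their sign and call under all 6 scalings, and *tob1*, at -0.01, passed under none.

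Of 6 genes of other deadenylases or related nucleases, 5 fell, beside 32% lower and 37.5% higher among all tested genes. The remaining gene, the other one named *noct*, had a log2 fold change of -0.47 that did not pass, and the median of the 6 was -1.52. One of the 2 genes named *noct*, which encodes the Ccr4-like Nocturnin, fell by 2.09 (SE 0.24, adjusted p = 0.000649) and *pde12*, the gene of a mitochondrial deadenylase, fell by 1.81 (SE 0.25, adjusted p = 0.00127, both edgeR with Benjamini-Hochberg). With library totals 2 of these 6 were lower, beside 18.6% of all tested genes. The 11 tested genes of enzymes that extend RNA 3′ ends, the opposite reaction, were split into 7 lower and 4 higher, with a median of -1.54. Among all tested genes 32% were lower and 37.5% higher, so the share of higher genes was near that of all genes. *tent5c* fell by 4.31 (SE 0.52, adjusted p = 0.000794) and *tent4a*, a non-canonical poly(A) polymerase, fell by 3.89 (SE 0.34, adjusted p = 0.000341). *tent5bb* rose by 3.48 (SE 0.62, adjusted p = 0.00304) and *tent5a* by 3.47 (SE 0.51, adjusted p = 0.00153, all edgeR with Benjamini-Hochberg). These 4 kept sign and call under all 6 scalings. *tent5bb* had only 8, 2 and 2 counts in wild types and 33, 20 and 40 in mutants. For *tent5a* the counts were 12, 7 and 3 against 60, 46 and 60. Both genes passed the filter on low counts only through the mutant samples, and the low wild-type counts limit the size of these rises. *papola*, which encodes the canonical nuclear poly(A) polymerase, was also among the genes that rose, by 1.54 (SE 0.21, edgeR with Benjamini-Hochberg, adjusted p = 0.00126).

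The 20 genes of proteins that bring CCR4-NOT to mRNAs included 8 lower, 7 higher and 5 not passing, near the 32% lower and 37.5% higher of all tested genes, with a median of 0.15. *nanos3*, which encodes a germ cell RNA-binding protein, had 1792, 1275 and 1479 counts in wild types and 37, 7 and 13 in mutants, and fell by 5.77 on the log2 scale (SE 0.55, edgeR with Benjamini-Hochberg, adjusted p = 0.000401). *zfp36l2*, which encodes a protein that binds AU-rich elements, fell by 2.20 (SE 0.22, adjusted p = 0.000450), and 1 of the 2 genes named *zfp36l1* rose by 3.87 (SE 0.66, adjusted p = 0.00260). The other *zfp36l1* gene fell by 0.98 (SE 0.23, adjusted p = 0.00821, all edgeR with Benjamini-Hochberg). *nanos2*, known from the mouse for its role in male germ cells, rose by 3.27 (SE 0.91, edgeR with Benjamini-Hochberg, adjusted p = 0.0167). It had only 13, 4 and 0 counts in wild types and 53, 25 and 36 in mutants. The gene passed the filter on low counts only through the mutant samples, and the low wild-type counts limit the size of the rise. Under all 6 scalings *nanos3* was called lower and *nanos2* higher, and *nanos1*, at 1.75 with every mutant sample above the wild types (edgeR, Benjamini-Hochberg adjusted p = 0.0536), was called higher under 4 of them. With library totals 4 genes of this list were lower and 8 higher, beside 18.6% and 41.1% of all tested genes. With upper-quartile factors they were 5 and 11, beside 19.9% and 49%. Its median was -0.15 with TMM factors computed without genes of other tissues.

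**Figure D5:**
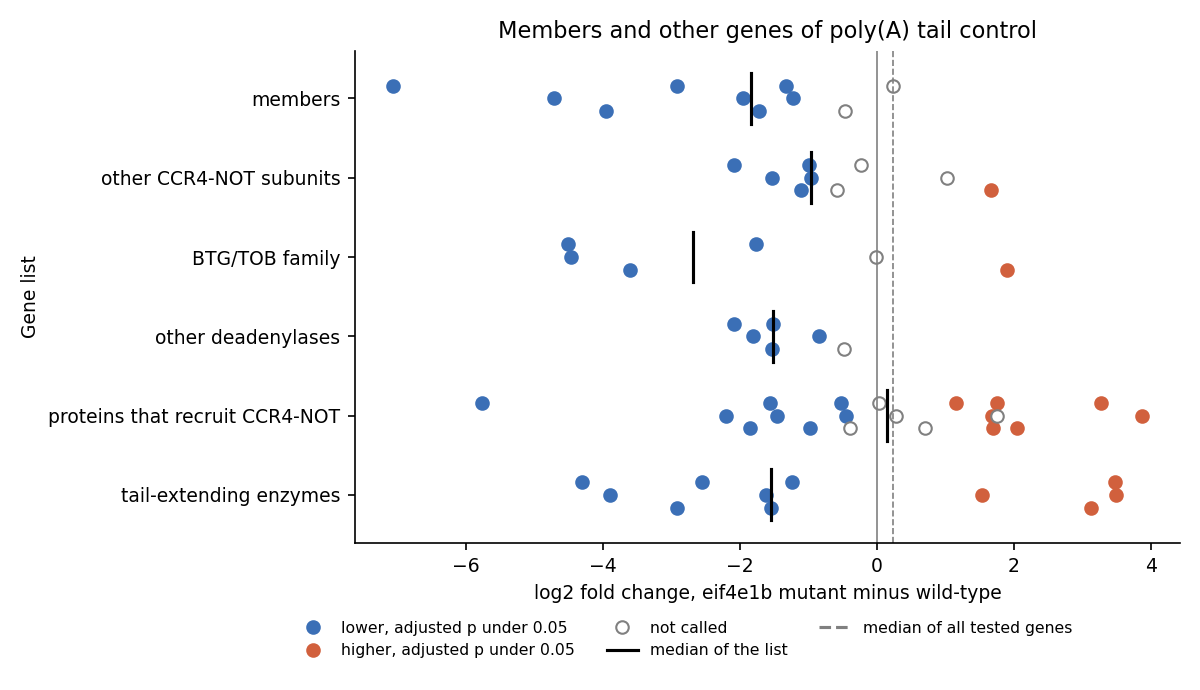
Log2 fold change, mutant minus wild-type, of each tested gene among the members and in 5 lists of genes of poly(A) tail control, with filled points for genes called lower (blue) or higher (orange), open points for genes not called, and a bar at each list's median. The members have a median of -1.83 and no gene called higher. The tail-extending enzymes have 7 lower and 4 higher, beside 32% lower and 37.5% higher among all tested genes.

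The genes with the most similar profiles over the 6 samples were taken for *btg4*, *parn* and *cnot7* among 11253 genes with a mean of at least 10 CPM, by the root mean square distance of centred log2(CPM + 1) values. For *btg4* these were *cldnd* (distance 0.144), *zp3a.1* (0.191), *zp3e* (0.222), *h1m* (0.234) and *zp3b* (0.235), of which *zp3a.1*, *h1m* and *zp3b* are on the oocyte list. *cldnd* was at 1142, 809 and 958 CPM in wild types and at 22.0, 0.310 and 0.267 CPM in mutants. Like *btg4* it was higher in mutant replicate 1 than in the other mutants, where its values were below the floor of 3 counts. For *parn* they were *micall2b* (0.0579), *uchl1* (0.0919), *oclnb* (0.118), *ubn1* (0.127) and *snx10a* (0.137). *micall2b* was at 669, 617 and 599 CPM in wild types and 36.0, 15.7 and 14.9 CPM in mutants, again with mutant replicate 1 above the others. For *cnot7* they were *si:ch211-15d5.12* (0.0457), *AP1G2* (0.0489), *AGGF1* (0.0581), *MGAT2* (0.0586) and *nedd1* (0.0635). No gene was among the nearest for more than 1 of these members, which follows from the unlike sizes of their falls.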

How the data were processed

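Gonads of *ziwi:GFP* juveniles were pooled by 3 per sample. RNA was purified with a column kit, and stranded libraries depleted of ribosomal RNA were sequenced. The deposited files hold raw counts per Ensembl gene, whole numbers with no normalization, made by the authors from reads aligned to GRCz11. The submitters' processing notes name Trim Galore 0.5.0, Bowtie2 2.3.4.1, featureCounts, Subread 1.6.2, DESeq2 1.18.1 and R 3.4.1. How multi-mapping reads were counted, the strand setting and the annotation release are not given in the sources used here.

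Symbols came from the study's supplementary tables and a gene name table, and 29412 of 32520 genes had one. Genotypes were compared with edgeR 4.0.16 (R 4.3.3): TMM factors, the default filter (minimum count 10, minimum total 15), the two-sided quasi-likelihood test and Benjamini-Hochberg adjustment over 20091 genes at 0.05. The code was tested on simulated data. CPM values use the TMM library sizes. Ratios are log2 of counts with 0.5 added, compared by exact permutation. Intervals for shares (Wilson, 95%) and for low counts (Poisson) cover counting error only. Replicates differed beyond sampling noise (chi-square per degree of freedom 10.4 to 149), and each counted as 1 sample. Each pool is labelled as a separate sample, and whether pools came from separate clutches is not given in the sources used here.

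The members and lists were chosen with earlier results of these data known. Named genes were all members, and of each pathway list up to 2 largest rises and 2 largest falls among called genes whose groups did not overlap, with further paralogs named where a comparison needed them: *cnot3b*, *papola*, *tob1*, *nanos1*, the other *noct* and *zfp36l1* genes and the single germ cell genes were added after their values were seen. For likeness, the 5 nearest genes were named. Alternatives were DESeq2 1.42.0, limma-voom (limma 3.58.1), other scalings and filters, a replicate block, and leaving out each sample. Leaving out both replicates 1 together was chosen after seeing the data. No sequences are printed, since no sequence table of these genes was used here.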

Additional observations from a re-analysis of the deposited data

How the results depend on the processing

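The count of lower members was 8 under most alternatives and 6 with library totals, 7 relative to the germ cell list and 9 with TMM factors computed without genes of other tissues. No member was higher, except 1 (*cnot1*) with upper-quartile factors. Of 170 values of single members under alternatives, 162 kept their direction and their side of the threshold. The sign turned for *cnot3a* with library totals (0.0074) and upper-quartile factors (0.22), and for *cnot1* with TMM factors computed without genes of other tissues (-0.053). On the TMM scale the median of all tested genes was 0.23, on that of library totals 0.65, 0.92 with upper-quartile factors, 0.51 relative to the germ cell list and -0.09 without genes of other tissues. Over all genes, 6437 were lower and 7528 higher in the edgeR fit with TMM factors, 3740 and 8250 with library totals, 4001 and 9840 with upper-quartile factors, and 3838 and 6903 relative to the germ cell list. Leaving out each sample in turn kept 8 members lower and 0 higher, beside 26.6% to 31.5% lower and 29.3% to 37.4% higher among all tested genes. Without both replicates 1 the counts were the same, beside 28.9% and 36.8%. Leaving out each sample moved the *btg4* to *cnot7* ratio between -9.16 and -6.14 on the log2 scale. Adding 5 counts moved that ratio to -6.60. Samples of the 2 genotypes with the same replicate number had correlations of deviations of 0.12, -0.20 and -0.05, beside -0.40 to 0.40 for unlike numbers. These values cannot tell whether replicate numbers pair the samples. With a replicate block 8 members were lower and 0 higher, beside 29.3% and 33% of all tested genes, and *btg4* was at -9.07. Ratios under the pairing had the same means. No member symbol had more than 1 identifier, so summing identifiers was not run. In mutant replicates 2 and 3, 4 and 2 counts limit the size of the *btg4* change.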
